A study of Homo sapiens with 20 samples.

Results

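The genes described here are 37 named coding genes of glycolysis and of the cellular response to low oxygen, followed through the differentiation of human neural progenitor cells into neurons. Members were given as a list of gene symbols, chosen with earlier results of these data known. For each symbol the coding record carrying it was used, and where a symbol had more than 1 record the record with the highest mean was taken. All 37 were found among 20237 coding records and 38369 gene records in all, and 36 of them had a single coding record (SLC2A3 had more). Of the 37, 34 had a mean of at least 1 FPKM over the days and were used for counts and medians, as were 11793 coding records in all. FPKM, a fragment count divided by transcript length and by sequencing depth, is a level per unit of length, so levels of different genes can be set side by side.

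The cells were neural progenitors made from the human embryonic stem cell line H1, and polyadenylated RNA was sequenced on 7 days of differentiation. Day 0 cells were kept on Matrigel in a proliferation medium with FGF, the mitogen of such progenitors. All later days were in a second medium, changed at the start, which lacked FGF and N2 supplement, had Neurobasal as its only base medium, kept B27 supplement without vitamin A and held BDNF, a neurotrophic factor, and cells for days 5, 11 and 18 were moved at day 4 to plates coated with poly-D-lysine and laminin. There were 3 cultures on each of days 0, 1, 2, 4, 11 and 18, and 2 on day 5, where the submitters had removed 1 culture as an outlier, which makes 20 samples. All cultures came from 1 cell line and and the oxygen level of the cultures was not given in the sources used here.

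In glycolysis, glucose is taken up, phosphorylated and split, and each part is turned into pyruvate with a gain of ATP. Pyruvate is then carried into the mitochondria, where pyruvate dehydrogenase turns it into acetyl-CoA, or is reduced to lactate and exported. When oxygen falls, the hydroxylases that mark the HIF transcription factors for destruction lose their substrate, and the stabilized HIF raises transcription of glucose transporters, glycolytic enzymes, pyruvate dehydrogenase kinases, lactate exporters and signals such as VEGFA. Proliferating progenitors are known for high glycolysis, and several HIF target genes are also controlled by growth factor, nutrient and stress signals.

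The deposited table holds 1 value per gene and day, into which the authors' software had combined all cultures of that day. No spread between cultures can therefore be given, no difference below was tested, and each one is described by its size. A change is the difference of log2(FPKM + 0.1) between 2 days less the median difference over the 11793 expressed coding records, and it is called past 2-fold at 1 or more in either direction. The values as deposited drifted downwards, by a median of 0.60 on the log2 scale over the whole course; the last step accounted for 0.28 of this, the first for 0.11, and the interval between days 5 and 11 for 0.16. Summed FPKM over all records was 413978 on day 0 and 251156 on day 18. Counts of members at the first step, from day 5 to day 11, at the last step and over the whole course are therefore given on both scales. Other counts past 2-fold, with those for lists of non-members, are relative to the median only. RNA came from whole cultures, so fewer cells of one kind and less of a transcript per cell cannot be told apart.

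The labelled cell type was checked first against fixed marker genes. Summed FPKM of 5 progenitor markers (SOX2, NES, MSI1, PAX6 and VIM) went from 3640 on day 0 to 1785 on day 18, most of it VIM (2948 and 1493). Relative to the median, 1 of the 5 was past 2-fold higher (PAX6, at 4.31 and 10.4 FPKM), beside 14.7% of expressed coding records. Past 2-fold lower were 0, beside 12.1%, and the median change was -0.34. Of 10 neuronal genes, 9 were past 2-fold higher on day 18 than on day 0, beside 14.7%. The summed FPKM of the 10 went from 278 to 1301. The pluripotency genes POU5F1 and NANOG stayed at or below 0.108 FPKM on all days. Among 4 astrocyte markers GFAP, AQP4 and ALDH1L1 did not pass 0.342 FPKM on any day, while S100B was at 8.68 on day 0, 1.89 on day 11 and 4.25 on day 18. Of 4 mesenchymal markers COL1A1 was listed at 0 on every day. The other 3 were past 2-fold lower on day 18 than on day 0, beside 12.1%, their summed FPKM going from 287 to 36.5.

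The main movement of the glycolysis and hypoxia-response genes was between day 11 and day 18. Relative to the median, 14 of the 34 expressed members were past 2-fold higher on day 18 (41.2%), beside 1.83% of all expressed coding records, and 0 were past 2-fold lower, beside 1.41%. As deposited, 13 were higher, beside 0.839%, and 0 lower, beside 3.72%. PGK1, at a log2 change of 1.01, is the member between these counts. The median change of the members was 0.78, with 25 above 0 and 9 below, and as deposited it was 0.51. The 14 were VEGFA, BNIP3, ADM, P4HA1, DDIT4, PDK1, SLC16A3, HK2, PFKP, PGK1, ENO2, SLC2A3, PFKFB3 and PFKFB4, so every role group but the oxygen sensors had at least 1. Of these, SLC16A3 passed the level filter through day 18 alone and had to show a difference.

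**Figure D1:**
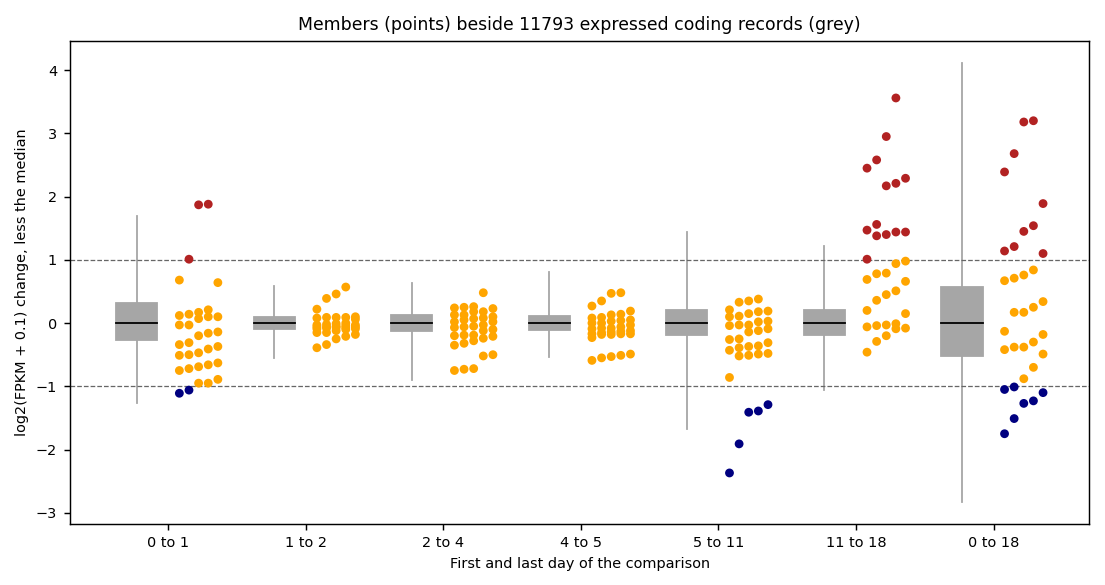
Changes in log2(FPKM + 0.1), less the median (vertical axis), for each pair of neighbouring days and for the whole course. Grey boxes span the 25th to 75th percentile of 11793 expressed coding records, with a black median line and a thin line from the 1st to the 99th percentile; points are the 34 expressed members, red past 2-fold higher, blue past 2-fold lower, orange between, dashed lines mark 2-fold, and their sideways position carries no value. The 14 red points from day 11 to day 18 reach 3.56 (SLC16A3, which passed the level filter through day 18 alone).

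Ranked among the 11793 expressed coding records by this change, SLC16A3 was 2nd, VEGFA 4th, BNIP3 9th, ADM 10th, P4HA1 11th, PDK1 13th and HK2 14th. The rank of SLC16A3 carries the limit that it passed the level filter through day 18 alone. Members made up 7 of the 30 largest rises in value and 13 of the 100 largest. Strand was not used for any record. For 4 of the 14, a record on the opposite strand reached over 10% of the member's mean level. Overlapping records on that strand summed to 1.11 FPKM on day 11 and 3.82 on day 18 for PFKFB3, 2.63 and 3.12 for P4HA1, 0.305 and 0.685 for PDK1, and 0.518 and 1.48 for BNIP3. These values were below the day 18 level of the member in each case, and their part in the changes was not tested.

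VEGFA encodes the growth factor that draws blood vessels towards tissue short of oxygen. It lies at chr6:43737953-43754221 (hg19, as the file gives it). Its level was 11.1 FPKM on day 0, 38.2 on day 1, 54.2 on day 2, 38.3 on day 4, 25.5 on day 5, 6.00 on day 11 and 38.7 on day 18. VEGFA thus had a high stretch over the first days, its lowest value on day 11 and a second high on day 18. The log2 changes were 1.88 at the first step, -1.91 from day 5 to day 11 and 2.95 at the last step.

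DDIT4 encodes an inhibitor of mTORC1 signalling that is made under low oxygen and other stresses. It stood at 35.5 FPKM on day 0, 121 on day 1, 132 on day 2, 92.1 on day 4, 58.0 on day 5, 28.6 on day 11 and 64.0 on day 18. Its course was like that of VEGFA, with the early values the higher ones. The log2 changes were 1.87 at the first step and 1.44 at the last.

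BNIP3 encodes a mitochondrial receptor that marks the organelle for degradation. Its FPKM was 8.67, 9.31, 10.3, 10.5 and 8.84 on days 0, 1, 2, 4 and 5, then 7.41 on day 11 and 37.0 on day 18. The 6 earlier values lay close together and day 18 alone stood apart, 5.00 times the day 11 level, with a log2 change of 2.58. The gene annotation names 44 pseudogene copies of BNIP3, so its reads could have been split between loci.

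P4HA1 and P4HA2 encode catalytic subunits of the prolyl hydroxylase that collagen needs to fold. P4HA1 had 16.8 FPKM on day 0, 12.6 on days 1 and 2, 14.2 on day 4, 9.58 on day 5, 5.99 on day 11 and 24.5 on day 18, a log2 change of 2.29 over the last step. P4HA2 had 2.68, 5.09, 6.92, 4.13, 5.49, 1.94 and 2.81 FPKM on the same 7 days, with log2 changes of 1.01 at the first step, -1.29 from day 5 to day 11 and 0.79 at the last. The larger day 18 level was that of P4HA1, while P4HA2 was highest on day 2.

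ADM encodes the vasodilator peptide adrenomedullin. It was at 22.1 FPKM on day 0, 9.40 on day 1, 9.12 on day 2, 7.97 on day 4, 8.64 on day 5, 1.41 on day 11 and 6.75 on day 18. Day 0 was its highest value, unlike VEGFA and DDIT4 at the first step, and day 11 its lowest. The log2 changes were -1.11 at the first step, -2.37 from day 5 to day 11 and 2.45 at the last.

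NDRG1, a stress-response gene widely used as a hypoxia marker, went the other way at the last step. Its FPKM was 15.1 on day 0, 10.5 on day 1, 9.08 on day 2, 7.46 on day 4, 9.04 on day 5, 5.77 on day 11 and 3.41 on day 18. NDRG1 was the single member of its role group among the 7 expressed ones with a negative change from day 11 to day 18 (-0.46), and its change from day 0 to day 18 was -1.51. The remaining 2 genes of this group were below the level filter. ANKRD37, an ankyrin repeat gene, went from 0.366 FPKM on day 11 to 1.39 on day 18, but a record on the opposite strand that overlaps it reached 15.5 FPKM, and the authors' default options do not use strand. CA9, a carbonic anhydrase, did not exceed 0.0398 FPKM and was listed at 0 on days 4 and 11.

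Summed over the 9 genes of this group, expression was 112 FPKM on day 0, 206 on day 1, 235 on day 2, 176 on day 4, 126 on day 5, 57.4 on day 11 and 179 on day 18. The sum was therefore highest on day 2 and lowest on day 11. As a share of all coding FPKM it was 0.0313% on day 0, 0.0211% on day 11 and 0.0827% on day 18, so that by share the last day was the highest. Most of the sum on day 2 was DDIT4 (132) and VEGFA (54.2), both highest on that day, as was P4HA2. ADM and NDRG1 were highest on day 0, and BNIP3 and P4HA1 on day 18.

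**Figure D2:**
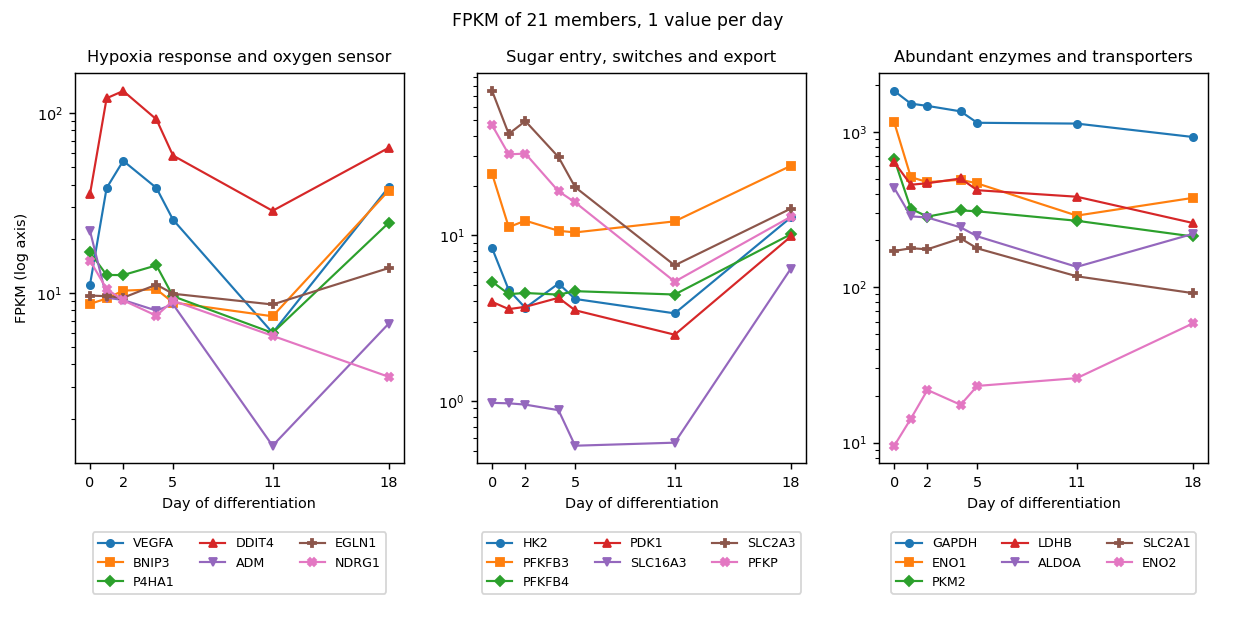
FPKM on a log axis (vertical) by day of differentiation (horizontal) for 21 members in 3 panels, 1 point per day, so there are no error bars. VEGFA, DDIT4, P4HA1 and ADM have their lowest point on day 11; BNIP3 and SLC16A3 stand apart on day 18 alone; GAPDH, LDHB, SLC2A1 and NDRG1 end at their lowest value.

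EGLN1 and EGLN3 encode oxygen-sensing hydroxylases that mark HIF for destruction and are themselves HIF targets. EGLN1 was at 9.66, 9.58, 9.39, 11.1, 9.89 and 8.62 FPKM through day 11 and at 13.7 on day 18, a log2 change of 0.94 at the last step and of 1.10 from day 0. EGLN3 was below 1 FPKM on 6 days, lowest on day 11 at 0.391, and at 2.61 on day 18; its mean of 0.981 left it out of the counts. Both had their highest value on day 18.

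Among the genes that set the fate of glucose and pyruvate, SLC16A3 moved furthest. It encodes a lactate exporter of strongly glycolytic cells. Its FPKM was 0.973, 0.967, 0.950, 0.879, 0.536 and 0.559 on the first 6 days and 6.30 on day 18, which was 11.3 times the day 11 value and a log2 change of 3.56. All 6 earlier days were below 1 FPKM, so SLC16A3 passed the level filter through day 18 alone and had to show a difference. SLC16A1, the widely expressed transporter of the same family, was at 40.1 FPKM on day 0, 27.5 on day 11 and 19.8 on day 18, with a last-step change of -0.20.

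PDK1 and PDK3 encode kinases that switch off pyruvate dehydrogenase and so block the making of acetyl-CoA from pyruvate. PDK1 was at 3.97, 3.59, 3.70, 4.20, 3.53 and 2.51 FPKM through day 11 and at 9.85 on day 18, a log2 change of 2.21. PDK3 stayed between 2.21 FPKM on day 18 and 3.13 on day 4, with a last-step change of -0.09. Only the first of the pair was past 2-fold higher on the last day.

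HK2, the inducible hexokinase that phosphorylates incoming glucose, was at 8.36 FPKM on day 0, 4.68 on day 1, 3.65 on day 2, 5.12 on day 4, 4.13 on day 5, 3.38 on day 11 and 12.8 on day 18, with a last-step log2 change of 2.17. HK1, the hexokinase of most tissues and of neurons, was at 56.6 FPKM on day 0, 24.1 on day 11 and 34.1 on day 18, with a last-step change of 0.78. HK1 remained the more abundant of the pair on each of the 7 days.

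The PFKFB enzymes make and remove the sugar bisphosphate that activates phosphofructokinase. PFKFB3 was at 23.5 FPKM on day 0, then at 11.2, 12.3, 10.7, 10.4 and 12.2 on days 1, 2, 4, 5 and 11, and at 26.3 on day 18, a last-step log2 change of 1.38. PFKFB4 was at 5.25, 4.42, 4.49, 4.39, 4.60 and 4.39 FPKM through day 11 and at 10.2 on day 18, a change of 1.47. PFKFB3 was thus high on the first and the last day, and PFKFB4 on the last. PFKFB2 was highest on day 5 (3.38 FPKM), and its last-step change was 0.20 relative to the median but -0.07 as deposited, and a record on the opposite strand that overlaps it reached 5.57 FPKM.

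Of the 2 glucose transporters, SLC2A1 was the more abundant on all days. SLC2A1, the general transporter, was at 171, 178, 175, 206, 178, 118 and 91.6 FPKM over the 7 days, highest on day 4 and lowest on day 18. SLC2A3, the transporter typical of neurons, was at 74.6 FPKM on day 0, 41.0 on day 1, 49.1 on day 2, 29.7 on day 4, 19.6 on day 5, 6.59 on day 11 and 14.5 on day 18. SLC2A3 had log2 changes of -1.39 from day 5 to day 11 and 1.40 at the last step, and on day 18 it was still below day 0 by a change of -1.75.

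Summed over the 15 enzymes that carry out the steps of glycolysis, the level was highest on day 0. Their summed level was 4797 FPKM on day 0, 3102 on day 1, 2969 on day 2, 2843 on day 4, 2562 on day 5, 2187 on day 11 and 2209 on day 18. That was 1.34% of all coding FPKM on day 0, 0.804% on day 11 and 1.02% on day 18. Most of the sum on day 0 was GAPDH (1829), ENO1 (1148) and PKM2 (667), and ENO1 and PKM2 are marked as failed tests at each step. Not every enzyme was highest on day 0: HK2 and ENO2 were highest on day 18, PFKL on day 2 and PFKM on day 11. At the first step, 12 of the 15 had a negative change, with a median of -0.51, and at the last, 12 of the 15 had a positive one, with a median of 0.66. From day 0 to day 18 the median was -0.38, with 2 past 2-fold higher (HK2 and ENO2), beside 14.7% of expressed coding records, and 4 lower (PFKP, ALDOC, ENO1 and PKM2), beside 12.1%. As deposited this median was -0.98, with 1 higher (ENO2), beside 7.57%, and 6 lower, TPI1 and PGAM1 being added, beside 29.9%.

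GAPDH, the dehydrogenase of the middle of the pathway and the member with the highest level, was at 1829 FPKM on day 0, 1516 on day 1, 1466 on day 2, 1352 on day 4, 1142 on day 5, 1128 on day 11 and 925 on day 18. Its FPKM was lower on each day than on the one before, but its change from day 0 to day 18 relative to the median was -0.38 and its last-step change -0.01. The annotation names 65 pseudogene copies of GAPDH.

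Enolase, which makes phosphoenolpyruvate, has 2 forms here, 1 lower and 1 higher on day 18 than on day 0. ENO1, the general form (chr1:8921063-8938780, hg19), was at 1148 FPKM on day 0, 511 on day 1, 474 on day 2, 491 on day 4, 465 on day 5, 289 on day 11 and 376 on day 18. ENO2, the neuronal form (chr12:7023614-7032859, hg19), was at 9.56, 14.3, 21.8, 17.5, 23.2, 26.0 and 58.5 FPKM on the same days. The largest part of the ENO1 difference was between days 0 and 1 (log2 change -1.06), while ENO2 was highest on day 18 and had a change of 3.20 from day 0. At the last step both had positive changes, 0.66 and 1.44. ENO1 and PKM2 are marked in the deposited table as failed tests at each step, and the bearing of that mark on their levels was not tested.

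PKM2, the file's older symbol for the pyruvate kinase gene PKM, was at 667 FPKM on day 0, 319 on day 1, 285 on day 2, 312 on day 4, 308 on day 5, 268 on day 11 and 212 on day 18. Its change was -0.95 at the first step and -1.05 over the whole course. PGAM1, the mutase before enolase, was at 183 FPKM on day 0, 91.4 on day 1 and 65.7 on day 18, with a first-step change of -0.89. These 3 late-pathway enzymes, with ENO1 the third, had the largest negative first-step changes among the 15.

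Phosphofructokinase, the enzyme of the committed step, is built from 3 kinds of subunit. PFKP, the platelet-type subunit, was at 46.3 FPKM on day 0, 30.9 on day 1, 31.2 on day 2, 18.5 on day 4, 15.8 on day 5, 5.26 on day 11 and 13.0 on day 18. PFKL, the liver-type subunit, stayed between 28.3 and 39.9 FPKM, and PFKM, the muscle-type subunit, between 38.9 and 52.8. PFKP was the subunit with the highest level on day 0 and the one with the lowest on all days from day 1, and its log2 changes were -1.41 from day 5 to day 11 and 1.56 at the last step.

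ALDOA, the main aldolase that splits the sugar, was at 434 FPKM on day 0, 286 on day 1, 281 on day 2, 243 on day 4, 213 on day 5, 135 on day 11 and 220.4 on day 18, with a last-step change of 0.98, just short of 2-fold. ALDOC, the brain aldolase, was at 3.72, 2.19, 1.76, 1.36, 1.21, 0.790 and 0.946 FPKM, a change of -1.27 from day 0 to day 18. PGK1, which makes the first ATP of the payoff phase, was at 107 FPKM on day 0, 62.7 on day 1, 61.9 on day 2, 65.6 on day 4, 66.4 on day 5, 53.9 on day 11 and 89.6 on day 18. All 3 had their lowest value on day 11. The remaining enzymes, GPI and TPI1, the isomerases of the upper pathway, were also highest on day 0 (76.4 and 150.1 FPKM) and had last-step changes of 0.69 and 0.36; the change of GPI from day 0 to day 18 was 0.25 relative to the median and -0.34 as deposited.

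Lactate dehydrogenase, which interconverts pyruvate and lactate, was listed mostly as LDHB. LDHB was at 637 FPKM on day 0, 456 on day 1, 466 on day 2, 500.5 on day 4, 421 on day 5, 382 on day 11 and 259 on day 18, whereas LDHA stayed between 7.57 and 13.1. Neither had a positive change at the last step (-0.29 and -0.04), although LDHA is a well-known HIF target. Of the exon bases of LDHA, 87.1% also lie in a record on the opposite strand, whose level did not exceed 0.0497 FPKM. Such overlap is not particular to LDHA: 26 members had some, among them the abundant ENO1 (93.4%) and SLC2A1 (82.6%). The annotation names 6 pseudogene copies of LDHA. Reads of LDHA may have been lost in counting, which was not tested, so the balance of the 2 forms is uncertain.

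**Figure D3:**
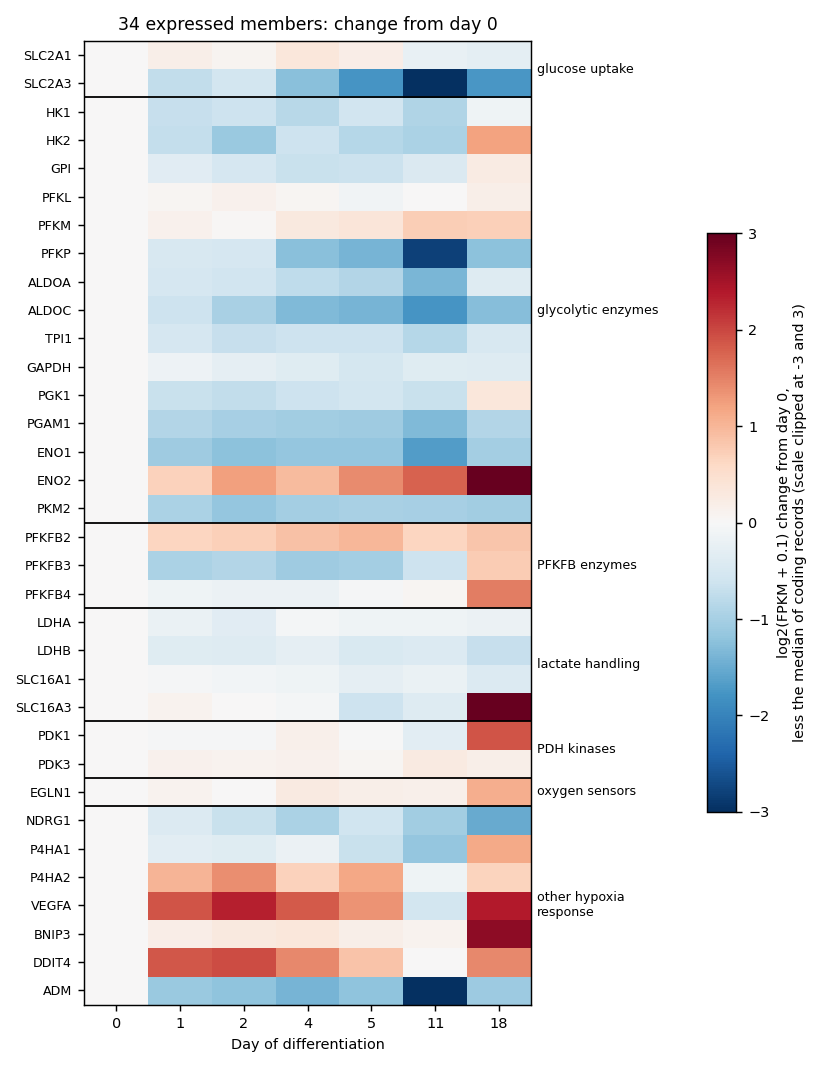
Change in log2(FPKM + 0.1) from day 0, less the median (colour, red higher and blue lower, clipped at 3), for the 34 expressed members (rows, grouped by role) on the 7 days (columns). Red in the day 18 column is deepest for ENO2 (3.20), SLC16A3 (3.18) and BNIP3 (2.68); blue on day 11 is deepest for ADM, SLC2A3 and PFKP.

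Of the earlier steps, the first and that from day 5 to day 11 each had 5 members past 2-fold. From day 0 to day 1, 3 members were past 2-fold higher (P4HA2, VEGFA and DDIT4), beside 4.66% of expressed coding records, and 2 were lower (ENO1 and ADM), beside 2.09%. As deposited, 2 were higher, beside 3.6%, and 5 were lower (PGAM1, ENO1, PKM2, PFKFB3 and ADM), beside 3.09%. The median change was -0.25, with 22 of 34 members below 0. At the middle steps 0 members were past 2-fold in either direction. The background for higher and for lower values was 0.11% and 0.161% between days 1 and 2, 0.127% and 0.653% between days 2 and 4, and 0.373% and 0.0424% between days 4 and 5, the step that spans the replating.

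From day 5 to day 11, 0 members were past 2-fold higher, beside 2.67% of expressed coding records, and 5 were lower (SLC2A3, PFKP, P4HA2, VEGFA and ADM), beside 3.05%. As deposited, 0 were higher, beside 1.8%, and 6 were lower, DDIT4 being the sixth, beside 4.24%. The median change was -0.19. All 7 expressed genes of the hypoxia-response group had a negative change at this step, with a median of -0.86. In FPKM as deposited, which drifted downwards over the course, 18 of the 34 expressed members were lowest on day 11 and 9 on day 18. Of all 37 members, 17 were highest on day 0 and 12 on day 18. The shares of all expressed coding records highest or lowest on these days were not counted, so these counts describe the members only.

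**Figure D4:**
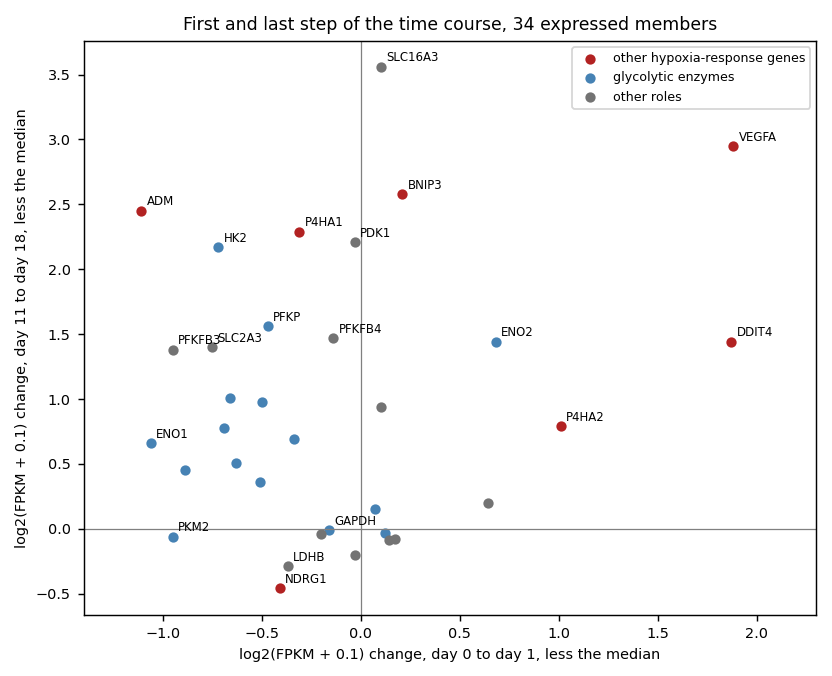
Change from day 0 to day 1 (horizontal) against change from day 11 to day 18 (vertical) for the 34 expressed members, both in log2(FPKM + 0.1) less the median, coloured by role. VEGFA (1.88 and 2.95) and DDIT4 (1.87 and 1.44) were higher at both steps, ADM (-1.11 and 2.45) lower and then higher, and SLC16A3 (0.10 and 3.56) higher at the last step.

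Over the whole course, from day 0 to day 18, 10 members were past 2-fold higher relative to the median (HK2, ENO2, SLC16A3, PFKFB4, PDK1, EGLN1, P4HA1, VEGFA, BNIP3 and DDIT4), beside 14.7% of expressed coding records. Here too, SLC16A3 passed the level filter through day 18 alone. The 7 that were lower were PFKP, ALDOC, ENO1, PKM2, SLC2A3, NDRG1 and ADM, beside 12.1%. As deposited, 5 were higher, beside 7.57%, and 11 lower, beside 29.9%. The median of the members was 0.17 relative to the median and -0.43 as deposited, so its direction depended on the scale; for single members the direction did so for GPI, PDK3, PFKL and PGK1. With day 11 in place of day 18, 1 member was past 2-fold higher than on day 0 (ENO2), beside 11.5% of expressed coding records, and 9 were lower, beside 8.3%.

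Ratios of 2 members that perform the same step within a day are free of the scaling of the days, and 13 such pairs were followed. The ratio of ENO2 to ENO1 was 0.00833 on day 0, 0.0279 on day 1, 0.0460 on day 2, 0.0357 on day 4, 0.0498 on day 5, 0.0901 on day 11 and 0.156 on day 18, which is 18.7 times the day 0 value. ENO1 remained the more abundant form throughout, but it is marked as a failed test at each step. The bearing of that mark on this ratio was not tested. The ratio of SLC16A3 to SLC16A1 was between 0.0178 and 0.0266 through day 11 and 0.319 on day 18.

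In 4 pairs the ratio on day 18 was lower than on day 0 by more than 1 on the log2 scale. SLC2A3 to SLC2A1 went from 0.436 on day 0 to 0.0561 on day 11 and 0.159 on day 18, and PFKP to PFKL from 1.21 to 0.170 and 0.459. Both therefore had their minimum on day 11. HK1 to HK2 was 6.77 on day 0, 7.12 on day 11 and 2.66 on day 18, and PDK3 to PDK1 was 0.756, 1.14 and 0.224, so these 2 moved at the last step. LDHB to LDHA, with the LDHA level uncertain, was 48.6 on day 0 and 34.2 on day 18, ALDOC to ALDOA was 0.00857 and 0.00429, and the log2 ratio changes of the other 5 pairs were from -0.48 (P4HA2 to P4HA1) to 0.94 (EGLN3 to EGLN1).

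**Figure D5:**
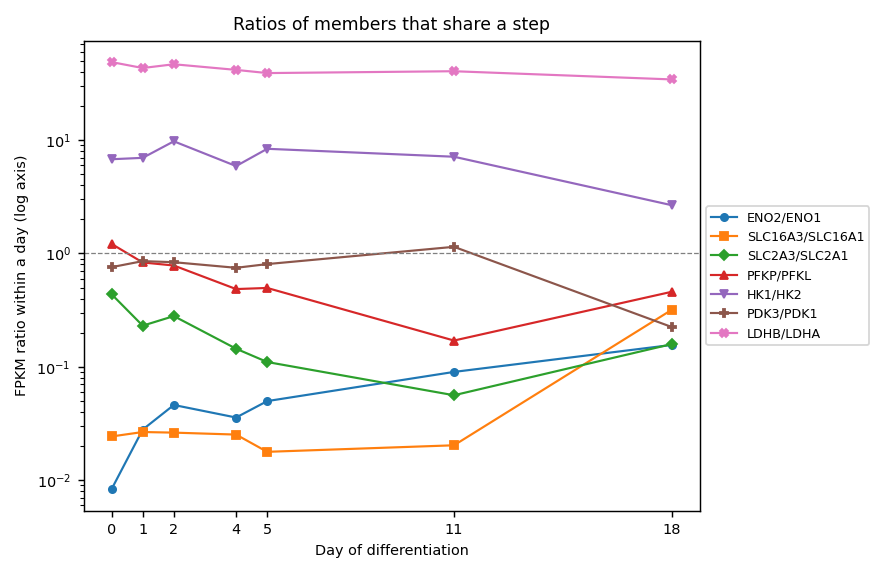
FPKM ratio of 2 members of the same step within a day (vertical, log axis) by day (horizontal) for 7 of the 13 pairs, 1 value per day; the dashed line marks equal levels. ENO2/ENO1 climbs from 0.00833 to 0.156 over the course (ENO1 is marked as a failed test at each step). SLC16A3/SLC16A1 climbs between day 11 (0.0203) and day 18 (0.319), and HK1/HK2 and PDK3/PDK1 drop in that interval.

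The genes around these pathways were taken from lists of non-members. Like the members, these lists were chosen with earlier results of these data known, so they are not independent of the data. Of 26 further hypoxia-response genes 22 were expressed, and from day 11 to day 18, 7 of these were past 2-fold higher, beside 1.83% of expressed coding records, and 0 lower, beside 1.41%, 21 were above 0, and the median was 0.64. STC2, a secreted glycoprotein gene, was at 1.55 FPKM on day 0, 9.84 on day 1, 0.809 on day 11 and 5.51 on day 18, a course like that of VEGFA. BHLHE40, a transcriptional repressor gene, was at 1.02 on day 11 and 5.60 on day 18, and PLOD2, a collagen lysyl hydroxylase gene, at 2.04 and 8.52. From day 0 to day 18, 13 of the 22 were past 2-fold higher relative to the median, beside 14.7%, and 1 lower (LOX), beside 12.1%. Their median over this interval was 1.22 relative to the median and 0.62 as deposited. The count past 2-fold as deposited was not made for this list and would be affected by the downward drift.

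A list of 8 further HIF system genes was also followed, without the members EGLN1 and EGLN3, both highest on day 18. From day 11 to day 18, 0 of the 8 were past 2-fold higher or lower, with a median of 0.06. The shares of all expressed coding records were 1.83% and 1.41%, so 0 among 8 genes does not set the list apart. HIF1A, the oxygen-regulated subunit, was at 69.4 FPKM on day 0, 40.9 on day 11 and 32.9 on day 18. EPAS1, the related subunit, was at 9.60 on day 5, 0.712 on day 11 and 0.468 on day 18. HIF3A, another alpha subunit, was at 0.322 on day 0, 1.01 on day 1 and 1.75 on day 18. From day 0 to day 18, HIF3A was the 1 gene of the 8 past 2-fold higher, beside 14.7% of expressed coding records. EPAS1 was the 1 past 2-fold lower, beside 12.1%. HIF is regulated mainly through protein stability, which RNA levels do not measure.

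Pyruvate entry into mitochondria was followed with 10 genes for pyruvate dehydrogenase, its phosphatases, the pyruvate carrier and pyruvate carboxylase. From day 0 to day 18, 0 of them were past 2-fold higher, beside 14.7% of expressed coding records, and 0 lower, beside 12.1%. Their median was -0.08. Of 17 other isoforms of glycolytic enzymes, transporters and kinases, 3 were expressed (PGAM2, ENO3 and PDK2). Over the same interval 1 of the 3, PGAM2, was past 2-fold higher, beside 14.7%.

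Other groups of genes moved at the same steps. Of 16 proliferation genes 8 were past 2-fold lower from day 11 to day 18, beside 1.41% of expressed coding records. Their median was -0.94, and their summed FPKM was 546 on day 11 and 233 on day 18. All 16 were below 0 from day 0 to day 1 as well, with a median of -0.65. All 10 neuronal genes had a positive change from day 11 to day 18, with a median of 0.73 and 2 past 2-fold, beside 1.83%. The part of these in the changes of the glycolysis and hypoxia-response genes was not tested.

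Sequence upstream of the members was taken from a supplied set of RefSeq promoters (GRCh38.p14). The set held a usable promoter for 32 of the 37 and none for SLC2A3, SLC16A1, PFKFB2, NDRG1 and VEGFA, which is a limit of the set and not of RefSeq. The 250 bases before each start site were searched on both strands for ACGTG and GCGTG, the core letters of the element that HIF binds. Either one was present in 20 of the 32 members, beside 43.2% of 35116 promoters, and 2 or more in 10 of the 32, beside 19.4%. ACGTG alone was present in 15 members (18.5% of all promoters) and GCGTG in 11 (32.2%). The palindrome CACGTG counts as ACGTG on both strands and was present in 5 (6.34%). The 35116 promoters were not limited to those of expressed coding records, unlike the shares given for the changes. They were not chosen to be like the members in base composition either. Whether the members differ from promoters of like genes was therefore not tested. Of the 12 members with a window that passed the level filter and were past 2-fold higher from day 11 to day 18, 9 had a match. Of the other 20, 11 had one. The 20 include EGLN3 and ANKRD37, below the level filter, whose last-step changes were 2.74 and 1.95, with 0 and 3 matches. A match is a string of letters and not a measured binding site, and the windows come from a later build than the hg19 records, so that the start sites used by these cells may differ.

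Shown next are the windows of 4 hypoxia-response members past 2-fold higher at the last step, of both enolases, whose ratio changed most, and of SLC16A3, which had the largest last-step change, written in the direction of transcription with each match in capitals (CACGT and CACGC are the motifs read on the other strand).
BNIP3, chr10:131981924-131982173, minus strand: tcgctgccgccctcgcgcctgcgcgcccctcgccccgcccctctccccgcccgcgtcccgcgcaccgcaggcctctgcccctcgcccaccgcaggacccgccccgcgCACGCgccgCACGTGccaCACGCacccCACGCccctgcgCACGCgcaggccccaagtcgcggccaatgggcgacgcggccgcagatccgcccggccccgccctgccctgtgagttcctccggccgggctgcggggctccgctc
DDIT4, chr10:72273674-72273923, plus strand: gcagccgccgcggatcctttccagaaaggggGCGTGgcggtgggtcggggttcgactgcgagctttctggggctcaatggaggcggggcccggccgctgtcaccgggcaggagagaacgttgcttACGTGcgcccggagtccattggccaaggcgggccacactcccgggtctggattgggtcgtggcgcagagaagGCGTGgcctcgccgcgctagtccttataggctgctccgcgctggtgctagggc
P4HA1, chr10:73096867-73097116, minus strand: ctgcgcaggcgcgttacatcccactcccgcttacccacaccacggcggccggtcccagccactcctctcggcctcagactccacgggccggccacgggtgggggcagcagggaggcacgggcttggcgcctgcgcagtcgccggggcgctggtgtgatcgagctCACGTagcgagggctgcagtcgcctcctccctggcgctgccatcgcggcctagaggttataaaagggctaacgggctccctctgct
ADM, chr11:10304823-10305072, plus strand: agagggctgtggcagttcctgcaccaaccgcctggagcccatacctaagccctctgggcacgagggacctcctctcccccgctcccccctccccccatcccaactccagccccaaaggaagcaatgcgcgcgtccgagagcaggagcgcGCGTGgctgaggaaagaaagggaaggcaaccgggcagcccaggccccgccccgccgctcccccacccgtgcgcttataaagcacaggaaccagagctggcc
ENO2, chr12:6914330-6914579, plus strand: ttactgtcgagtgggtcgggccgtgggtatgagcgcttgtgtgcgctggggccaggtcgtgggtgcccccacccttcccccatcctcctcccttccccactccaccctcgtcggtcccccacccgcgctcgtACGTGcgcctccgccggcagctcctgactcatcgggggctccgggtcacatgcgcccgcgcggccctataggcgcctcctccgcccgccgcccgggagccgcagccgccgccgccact
ENO1, chr1:8878687-8878936, minus strand: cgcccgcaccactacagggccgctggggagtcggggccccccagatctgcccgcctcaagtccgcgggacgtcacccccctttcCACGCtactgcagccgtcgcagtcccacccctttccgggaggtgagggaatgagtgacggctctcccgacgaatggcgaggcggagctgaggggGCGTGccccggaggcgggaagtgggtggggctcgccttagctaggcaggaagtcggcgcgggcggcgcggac
SLC16A3, chr17:82228185-82228434, plus strand: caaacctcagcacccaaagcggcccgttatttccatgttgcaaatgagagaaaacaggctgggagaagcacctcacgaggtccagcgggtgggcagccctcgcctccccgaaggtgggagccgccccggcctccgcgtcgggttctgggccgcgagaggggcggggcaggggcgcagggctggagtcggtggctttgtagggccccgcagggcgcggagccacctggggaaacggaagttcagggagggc
BNIP3 had 6 matches, with 1 palindrome counted on both strands, all starting between 143 and 104 bases before the start site. DDIT4 had 3, ENO1 had 2, and P4HA1, ADM and ENO2 had 1 each. SLC16A3, PDK1 and PFKP had 0 in this window, although all were past 2-fold higher from day 11 to day 18. LDHA, whose level is uncertain, had 5, with 2 palindromes counted on both strands, although it was not past 2-fold higher.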

How the data were processed

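Polyadenylated RNA of 20 cultures was prepared with the Illumina TruSeq RNA-Seq kit and sequenced as pairs on an Illumina HiSeq. The authors mapped reads with TopHat2 (hg19), built transcript models in Cufflinks and quantified them in Cuffdiff2 with its defaults, which ignore strand. Program versions are not given in the sources used here. The FPKM values deposited by the authors are 1 estimate per gene record and day over the cultures of that day, and 0 columns hold a single culture. Low values fell at no common step (of 5063 records below 0.1 FPKM on days 0 and 1, the commonest ratio held 34), so whole reads were not recovered and the depth behind each value is unknown. The deposited fold changes, test statistics, p-values and q-values of neighbouring days were not used.

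Samples were grouped by the day in their titles. Changes were computed as log2(FPKM + 0.1) differences less their median over coding records with a mean of at least 1 FPKM, using Python 3.11.15, numpy 2.4.6 and pandas 2.3.3, and the pseudocount understates changes of low genes. The code was tested on simulated data. Values on all days are given for members past 2-fold from day 0 to day 18 or at a neighbouring step and for the most abundant member of each role group. Members, lists and alternatives were chosen with earlier results of these data known. Alternatives were the values as deposited, scaling by the coding sum, a pseudocount of 1, no filter, a mean of at least 5 FPKM, 1.5-fold, and summed records; day 11 in place of day 18 was added after the data had been seen. Overlaps with records on the other strand were counted from the deposited exons, and pseudogene copies by name in GENCODE (lifted to GRCh37). A record on the opposite strand reached over 10% of the member's mean level for 8 members (PFKM, PFKFB2, PFKFB3, PDK1, ANKRD37, P4HA1, CA9 and BNIP3).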

Additional observations from a re-analysis of the deposited data

How the results depend on the processing

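No paired analysis was possible because the deposited table holds 1 value per day and none of a single culture; for the same reason no culture was left out in turn, and no error or depth limit could be given. The count of 14 members higher from day 11 to day 18 was within 1.5 times under each alternative run. For day 0 to day 1, the count of 2 lower members was 5 as deposited, 0 with the coding sum, 5 with no filter and 10 at 1.5-fold, and the 3 higher were 5 at 1.5-fold. At 1.5-fold, 3 members were lower on day 4 than on day 2 and 1 was lower on day 5 than on day 4. For day 0 to day 18, the 10 higher members were 5 as deposited and 1 with day 11 in place of day 18, and the 7 lower were 11 as deposited, 4 with the coding sum and 4 at a mean of at least 5 FPKM.

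The median change of the members from day 0 to day 18, 0.17, was -0.43 as deposited, -0.20 with no filter, -0.09 at a mean of at least 5 FPKM and -0.43 with day 11. As deposited, the medians by role were -1.63 for glucose uptake, -0.98 for glycolytic enzymes, 0.24 for PFKFB enzymes, -0.90 for lactate handling, 0.43 for pyruvate dehydrogenase kinases, 0.50 for the oxygen sensor and 0.54 for the other hypoxia-response genes. With day 11 in place of day 18, they were -1.69 for glucose uptake, 0.07 for PFKFB enzymes, -0.03 for the kinases, 0.16 for the sensor and -0.56 for the other hypoxia-response genes. Single changes with day 11 were -0.96 for HK2, -0.38 for SLC16A3, -0.31 for PDK1, -1.15 for P4HA1 and -0.56 for VEGFA.

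Among log2 ratio changes, a pseudocount of 1 gave -0.30 for ALDOC/ALDOA and 2.87 for SLC16A3/SLC16A1. Day 11 gave 0.07 for HK1/HK2, 3.44 for ENO2/ENO1, -2.83 for PFKP/PFKL, -2.96 for SLC2A3/SLC2A1, -0.26 for SLC16A3/SLC16A1, 1.28 for PFKFB2/PFKFB3, 0.60 for PDK3/PDK1, -1.12 for EGLN3/EGLN1 and 1.02 for P4HA2/P4HA1. Apart from day 11, which is another interval, and the scaling, which subtracts the shift itself, the cause of these differences was not tested.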

Other observations

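Among the 30 coding records with the largest rise in value from day 11 to day 18, 7 were members (SLC16A3 passed the level filter through day 18 alone) and 3 were on the list of further hypoxia-response genes (STC2, BHLHE40 and PLOD2). Others, named after their values were seen, were BCAN, a proteoglycan gene of brain matrix, at 0.952 FPKM on day 11 and 6.96 on day 18 (a log2 change of 3.02 relative to the median), CYP26B1, a retinoic acid hydroxylase gene, at 8.47 and 30.6 (2.12), HMOX1, a haem oxygenase gene, at 1.85 and 5.49 (1.80), and VGF, a neuropeptide precursor gene, at 11.5 and 29.6 (1.63). MAPT, which encodes the neuronal protein tau, was at 14.4 and 36.4 (1.61).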
